A study of Mus musculus with 7 samples.

Results

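The BCL2 family decides at the mitochondrion whether a cell lives or dies, and 10 of its genes were followed here in CD8+ T cells treated with small extracellular vesicles (sEVs). The genes were picked by symbol, a rule that itself uses no measured value. The list was, however, chosen with earlier results of these data known. All 10 genes were found among the 55367 genes counted. They were the pro-survival genes *Bcl2*, *Bcl2l1*, *Mcl1* and *Bcl2a1b*, the pore-forming effectors *Bax* and *Bak1*, and the BH3-only genes *Bcl2l11*, *Bid*, *Bad* and *Pmaip1*.

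Pro-survival proteins of the family bind and hold back the effectors BAX and BAK, which otherwise make pores in the outer mitochondrial membrane and release cytochrome c. BH3-only proteins sense stress or loss of growth signals and either occupy the pro-survival proteins or engage the effectors directly. In T cells, BCL2 and MCL1 sustain survival under cytokines such as IL7 and IL2, and BIM, the product of *Bcl2l11*, removes activated cells when those signals fade.

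CD8+ T cells were sorted by flow cytometry from spleens of Foxp3 YFP/cre mice, in which the *Foxp3* locus drives a yellow fluorescent protein and Cre in regulatory T cells, an allele shared by both groups. The cells were then kept for 48 hours with sEVs, at 100 µg/mL by the labels of both groups. The methods instead describe amounts set by what each kind of spleen contained, so vesicle type and vesicle amount cannot be told apart if the groups differed in dose. In 4 libraries the sEVs were control vesicles from the spleen microenvironment of healthy mice (HCME-sEVs), and in 3 libraries they came from leukemic spleens of Eμ-TCL1 mice (LME-sEVs), a model of chronic lymphocytic leukemia in which an immunoglobulin promoter and enhancer drive human TCL1 in B cells. No library of cells without vesicles and no age of the animals was given in the labels, and they do not say whether libraries came from separate mice or cultures, so the p-values measure only the spread between these libraries, which may be technical. The methods describe CD8+ T-cell cultures as stimulated through CD3 and CD28 with IL2, a cytokine that itself acts on this family.

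Libraries were made from the 3′ ends of transcripts and held 3689831 to 5030522 counts each. A transcript gives a single tag whatever its length, so levels of different genes were set side by side as CPM, counts scaled to the TMM-adjusted library total, without a length correction. Replicates differed beyond sampling noise, the chi-square of a pair divided by its degrees of freedom being 2.12 to 6.02, and HCME-sEV replicate 1 stood farthest from the others of its group at 4.12 to 6.02. All 10 CD8+ T-cell markers were present, with summed levels of 2314 to 2477 CPM after HCME-sEVs and 2584 to 2904 CPM after LME-sEVs, whereas *Cd4* and *Foxp3* never exceeded 3 counts. Marker lists of other cells were summed as well, and 3 of 5 were higher in every LME-sEV library. The 4 CD4 and regulatory T-cell markers summed to 6.24 to 14.4 CPM after HCME-sEVs and 15.2 to 17.2 CPM after LME-sEVs, most of it *Zbtb7b*. The 12 B-cell markers summed to 234 to 278 CPM after HCME-sEVs and 317 to 339 CPM after LME-sEVs. Nearly all of it was *Ighm*, and *Cd79a* reached at most 2 counts. The other B-cell markers went both ways. Their means after HCME-sEVs and LME-sEVs were 3.32 and 5.82 CPM for *Ighd* and 3.45 and 3.88 CPM for *Cd79b*. For *Ms4a1* they were 1.36 and 0.999 CPM, and for *Pax5* 0.860 and 0.228 CPM. The 10 basophil and mast cell markers summed to 20.2 to 49.3 CPM after HCME-sEVs and 51.2 to 74.6 CPM after LME-sEVs. The 10 erythroid and platelet markers ranged from 74.7 to 182 CPM and from 159 to 206 CPM. The 12 myeloid markers ranged from 544 to 695 CPM and from 604 to 672 CPM, almost all *Ly6c2*, which CD8+ T cells also express. Overlapping sums do not mean that each marker was alike. Mean levels after HCME-sEVs and LME-sEVs were 60.8 and 106 CPM for *Pf4*, 14.2 and 26.1 CPM for *Ppbp* and 23.0 and 23.1 CPM for *Hbb-bs*. For *Itgam* they were 0.058 and 1.52 CPM, and for *Clec7a* 0.637 and 0.228 CPM. The part of these cells in the results that follow was not tested, and in bulk RNA fewer cells of a type and less RNA per cell cannot be told apart.

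After LME-sEVs, *Bcl2* and the effector *Bak1* fell, to 0.69 and 0.74 of the HCME-sEV level, and no member rose. The other 8 members did not pass the test. A gene was called when its false discovery rate (FDR), the Benjamini-Hochberg adjusted p of edgeR's quasi-likelihood test over all 12623 genes tested, was under 0.05. All 10 members were abundant enough to be tested, and 2 of 10 were called, both lower, against 8.96% of all tested genes called in either direction, 5.21% called lower and 3.75% called higher. Among the 6998 tested genes at least as abundant as the lowest member, 12.4% were called. With so few members, nothing particular to the family is read from that count. None of the members passed the stricter limit of a log2 fold change beyond 1, which 1.28% of tested genes did. The median log2 fold change of the members was -0.26, and that of all tested genes was 0.0096.

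**Figure D1:**
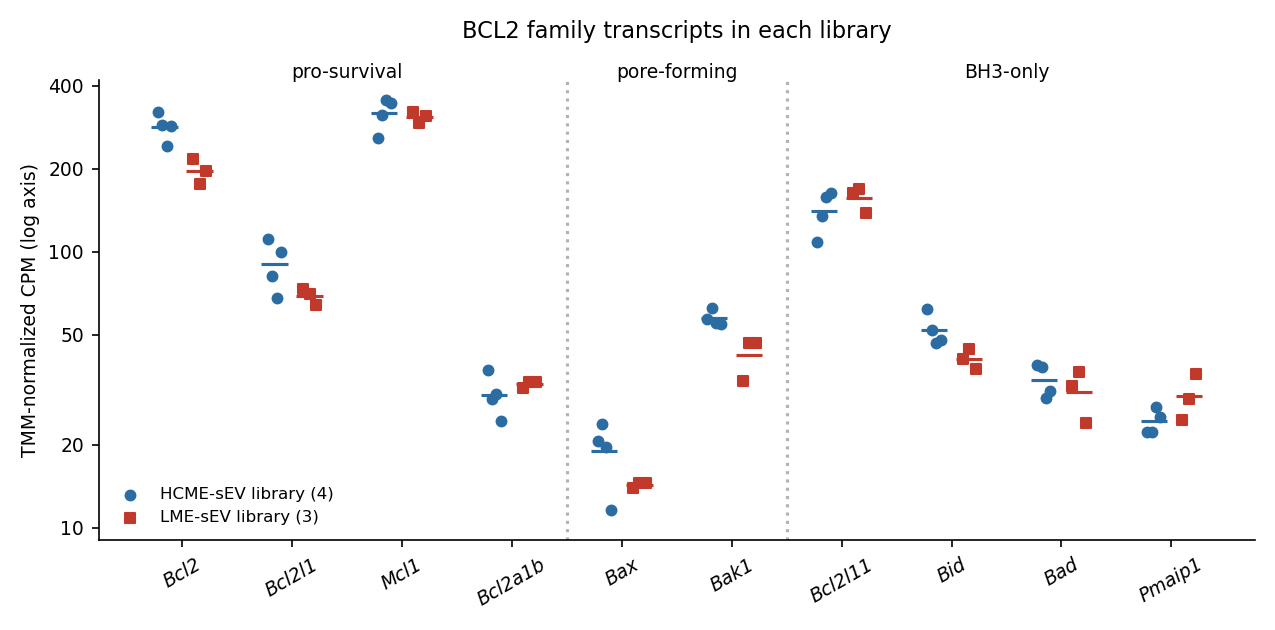
Level of each of the 10 BCL2 family members in every library, in TMM-normalized CPM on a log axis, with 4 HCME-sEV libraries (circles) and 3 LME-sEV libraries (squares) as points and the group mean as a line. For *Bcl2*, *Bak1* and *Bid*, and for no other member, all LME-sEV points lie below all HCME-sEV points.

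*Bcl2*, the founding pro-survival gene of the family, stood at 320.1, 287, 241 and 286 CPM in HCME-sEV replicates 1 to 4 and at 216, 176 and 197 CPM in LME-sEV replicates 1 to 3. Every LME-sEV library lay below every HCME-sEV library. The means were 284 ± 32.3 CPM (SD, n = 4) and 197 ± 19.96 CPM (SD, n = 3), a log2 fold change of -0.53 (SE 0.094, 95% interval -0.73 to -0.33) with an FDR of 0.0015 in edgeR's quasi-likelihood test. These values rest on 788 to 1333 counts per library. *Bcl2* was called under all 14 other settings tried, and its log2 fold change stayed between -0.60 and -0.46 when single libraries were left out.

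The *Bcl2* gene spans positions 106538178 to 106714274 on the minus strand of mouse chromosome 1 (GRCm38). The 250 bases before its RefSeq start, at chr1:106714291-106714540 on the minus strand of GRCm38.p6, are shown because *Bcl2* carried the clearest difference among the members. The capitals mark GC boxes, the letters GGGCGG read on either strand, the core of sites that SP1-type factors bind.
Bcl2 promoter: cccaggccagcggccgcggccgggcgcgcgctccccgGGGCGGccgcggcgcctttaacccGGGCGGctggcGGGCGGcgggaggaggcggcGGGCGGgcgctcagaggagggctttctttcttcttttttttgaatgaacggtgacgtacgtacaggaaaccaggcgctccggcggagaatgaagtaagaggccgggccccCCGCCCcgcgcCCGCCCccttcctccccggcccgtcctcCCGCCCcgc
The window held 7 GC boxes, and its GC content was 74.8%, against a median of 52.4% over 32851 RefSeq windows of the same length. At least 1 GC box was present in 32.7% of all windows. The window of *Bak1*, the other member that fell, held 0 GC boxes at 58.4% GC. That window, at positions 27028628 to 27028877, lies inside the annotated gene, which reaches 27029009, and is not printed because it overlaps an exon. The bases before the outermost *Bak1* start were not examined, so whether both genes share these letters is not known. None of the 13 windows that matched 9 of the 10 members held the STAT letters TTCNNNGAA, found in 7.02% of all windows, and 1 of the 2 windows of *Bcl2l11* held the FOXO core GTAAACA, found in 3.17%. Such matches describe letters only and say nothing of binding.

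*Mcl1*, which encodes a short-lived pro-survival protein needed by activated lymphocytes, was the most abundant member and did not pass the test. Its levels were 259.6, 314, 355 and 345 CPM after HCME-sEVs and 320.2, 293 and 309.6 CPM after LME-sEVs, so the LME-sEV libraries lay within the range of the others. Its log2 fold change was -0.05 (95% interval -0.24 to 0.14) with an FDR of 0.81 in edgeR's quasi-likelihood test.

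*Bcl2l1* encodes BCL-XL, a pro-survival protein induced when T cells are costimulated through CD28. It stood at 111, 82.1, 67.8 and 99.8 CPM after HCME-sEVs and at 73.5, 70.1 and 64.4 CPM after LME-sEVs. HCME-sEV replicate 3 lay among the LME-sEV libraries, and the other 3 lay above them. Its log2 fold change of -0.39 (SE 0.13, 95% interval -0.65 to -0.12, not adjusted for the number of genes) missed the threshold at an FDR of 0.062 in edgeR's quasi-likelihood test. Of the 7 fits that left out a library, only 1 called it, without HCME-sEV replicate 3, at an FDR of 0.0050. In the others the FDR was 0.073 to 0.24, the highest without LME-sEV replicate 3.

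*Bcl2a1b* is 1 of several mouse copies of the gene for A1, a pro-survival protein induced by antigen-receptor signals. Its levels of 37.2, 29.3, 30.6 and 24.4 CPM after HCME-sEVs enclosed those of 32.2, 33.8 and 33.6 CPM after LME-sEVs. Its log2 fold change was 0.13 (95% interval -0.14 to 0.40) with an FDR of 0.60 in edgeR's quasi-likelihood test.

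The value of a single A1 copy is uncertain because reads from near-identical 3′ ends can be assigned to the wrong copy. The last 300 bases of the *Bcl2a1a*, *Bcl2a1b* and *Bcl2a1d* transcripts were 98.7% to 99.3% identical, and their coding sequences of 516 bases were 97.9% to 98.8% identical. The first 75 coding bases, read from the GENCODE vM21 transcripts, are shown because they hold 6 of the 12 positions at which the 3 copies differ, marked by capitals.
Bcl2a1a: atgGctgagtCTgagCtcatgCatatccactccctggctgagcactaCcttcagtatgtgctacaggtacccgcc
Bcl2a1b: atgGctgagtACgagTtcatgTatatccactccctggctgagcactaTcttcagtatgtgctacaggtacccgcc
Bcl2a1d: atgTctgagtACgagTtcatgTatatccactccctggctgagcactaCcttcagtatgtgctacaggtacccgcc
*Bcl2a1b* and *Bcl2a1d* were counted at similar levels, and *Bcl2a1a* never exceeded 5 counts. Their summed level was 64.8 ± 6.92 CPM after HCME-sEVs (SD, n = 4) and 70.9 ± 2.71 CPM after LME-sEVs (SD, n = 3), and the groups overlapped. With the copies summed into 1 gene, the log2 fold change was 0.13 and the FDR 0.46 in edgeR's quasi-likelihood test.

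*Bak1* encodes BAK, an effector that sits in the outer mitochondrial membrane. It was measured at 57.1, 62.4, 55.3 and 55.0 CPM after HCME-sEVs and at 34.1, 46.6 and 46.6 CPM after LME-sEVs. The groups did not overlap, and LME-sEV replicate 1 was the lowest of all libraries. The means of 57.5 ± 3.42 CPM (SD, n = 4) and 42.4 ± 7.23 CPM (SD, n = 3) gave a log2 fold change of -0.43 (SE 0.11, 95% interval -0.66 to -0.19) with an FDR of 0.022 in edgeR's quasi-likelihood test. The call was lost without LME-sEV replicate 1, where the log2 fold change was -0.30 and the FDR 0.13, and without HCME-sEV replicate 2, where the FDR was 0.073. *Bak1* lies at positions 27019810 to 27029009 on the minus strand of chromosome 17 (GRCm38), and the gene *Ggnbp1* on the opposite strand overlaps it away from its 3′ end, with 2 to 10 counts per library.

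*Bax*, the second effector, which moves from the cytosol to mitochondria when activated, was the least abundant member. Its levels were 20.7, 23.7, 19.7 and 11.6 CPM after HCME-sEVs and 13.9, 14.6 and 14.5 CPM after LME-sEVs. HCME-sEV replicate 4 was lower than every LME-sEV library, and the other 3 HCME-sEV libraries were higher than all of them. The log2 fold change of -0.39 (SE 0.19, 95% interval -0.79 to 0.0043) had an FDR of 0.23 in edgeR's quasi-likelihood test. Without HCME-sEV replicate 4, in which 50 counts were recorded, the log2 fold change was -0.57 and the FDR 0.030. Of the 7 fits that left out a library, only that 1 called *Bax*. In the others the FDR was 0.27 to 0.51.

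*Bid* encodes the BH3-only protein that caspase 8 cleaves, which joins the death receptor route to the mitochondrion. It stood at 62.2, 52.3, 46.8 and 47.8 CPM after HCME-sEVs and at 40.8, 44.6 and 37.5 CPM after LME-sEVs. All LME-sEV libraries were below all HCME-sEV libraries, yet the log2 fold change of -0.36 (SE 0.12, 95% interval -0.60 to -0.12) missed the threshold at an FDR of 0.058 in edgeR's quasi-likelihood test. Its 3′ end, on the minus strand of chromosome 6 (GRCm38, gene at 120891930 to 120916853), overlaps that of *Bcl2l13* on the opposite strand. The strand setting of the counting is not stated, so how reads in the overlap were counted is not known. *Bcl2l13* itself was at 37.5 ± 3.78 CPM and 38.3 ± 2.93 CPM.

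*Bcl2l11* encodes BIM, the BH3-only protein that limits the life span of activated T cells, and it was the most abundant pro-death member. Its levels were 108, 135, 158 and 163 CPM after HCME-sEVs and 164, 169 and 138 CPM after LME-sEVs. LME-sEV replicates 1 and 2 were above every HCME-sEV library and replicate 3 was not. The log2 fold change was 0.15 (95% interval -0.083 to 0.39) with an FDR of 0.46 in edgeR's quasi-likelihood test.

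*Pmaip1* encodes NOXA, which binds MCL1 and is induced by p53 and by cell stress. It was at 22.3, 22.2, 27.4 and 25.3 CPM after HCME-sEVs and at 24.7, 29.3 and 35.9 CPM after LME-sEVs, and LME-sEV replicate 1 lay within the HCME-sEV range. The log2 fold change of 0.32 (95% interval 0.029 to 0.61) had an FDR of 0.17 in edgeR's quasi-likelihood test. *Bad*, whose product is held inactive by phosphorylation downstream of growth factors, was at 38.9, 38.1, 29.5 and 31.3 CPM against 32.7, 36.7 and 23.96 CPM. Its log2 fold change was -0.16 (95% interval -0.46 to 0.14) with an FDR of 0.57 in edgeR's quasi-likelihood test, and the groups overlapped.

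Across the 10 members, 3 had groups that did not overlap, *Bcl2*, *Bak1* and *Bid*, and in each the LME-sEV libraries lay below. Of all tested genes, 20.3% had groups that did not overlap, 10.8% with LME-sEV libraries below and 9.49% with them above. The fitted differences covered both roles. *Bcl2* and *Bcl2l1* among the pro-survival genes and *Bak1*, *Bid* and *Bax* among the pro-death genes had log2 fold changes of -0.53 to -0.36, while *Mcl1*, *Bcl2a1b*, *Bad*, *Bcl2l11* and *Pmaip1* lay between -0.16 and 0.32.

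**Figure D2:**
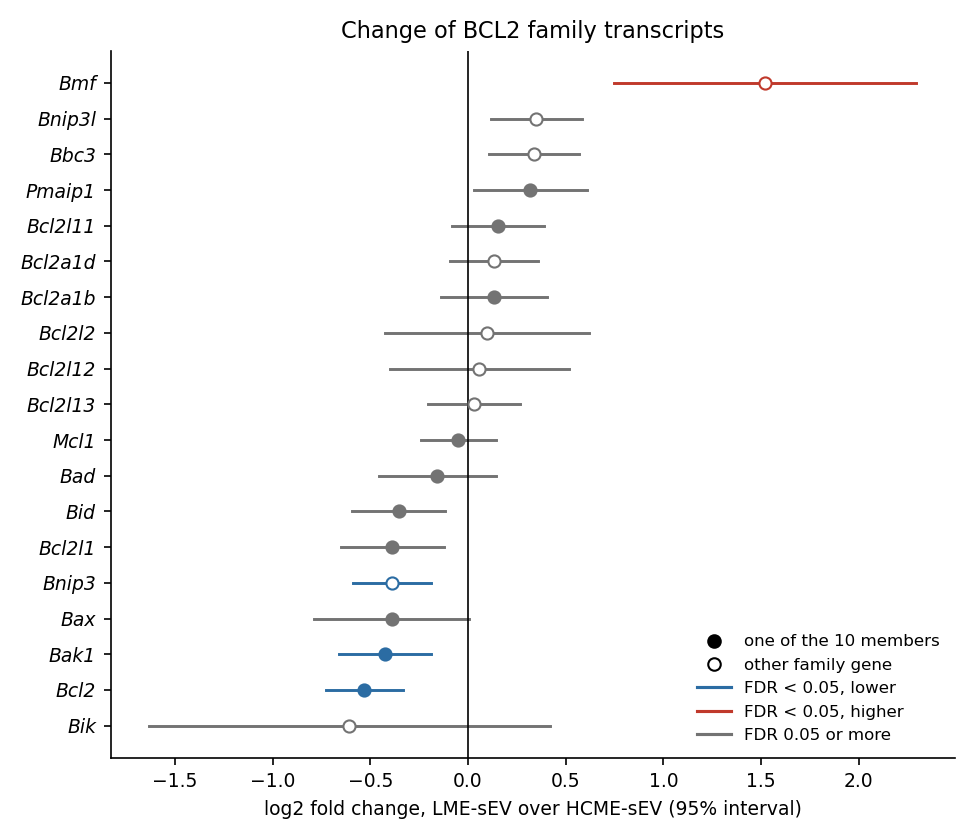
Log2 fold change of LME-sEV over HCME-sEV libraries with its 95% interval, for the 10 members (filled) and the 9 relatives abundant enough to test (open), from edgeR's quasi-likelihood fit to 4 and 3 libraries. Colour marks the genes called at an FDR under 0.05, which are *Bcl2* at -0.53, *Bak1* at -0.43, *Bnip3* at -0.39 and *Bmf* at 1.52.

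**Figure D3:**
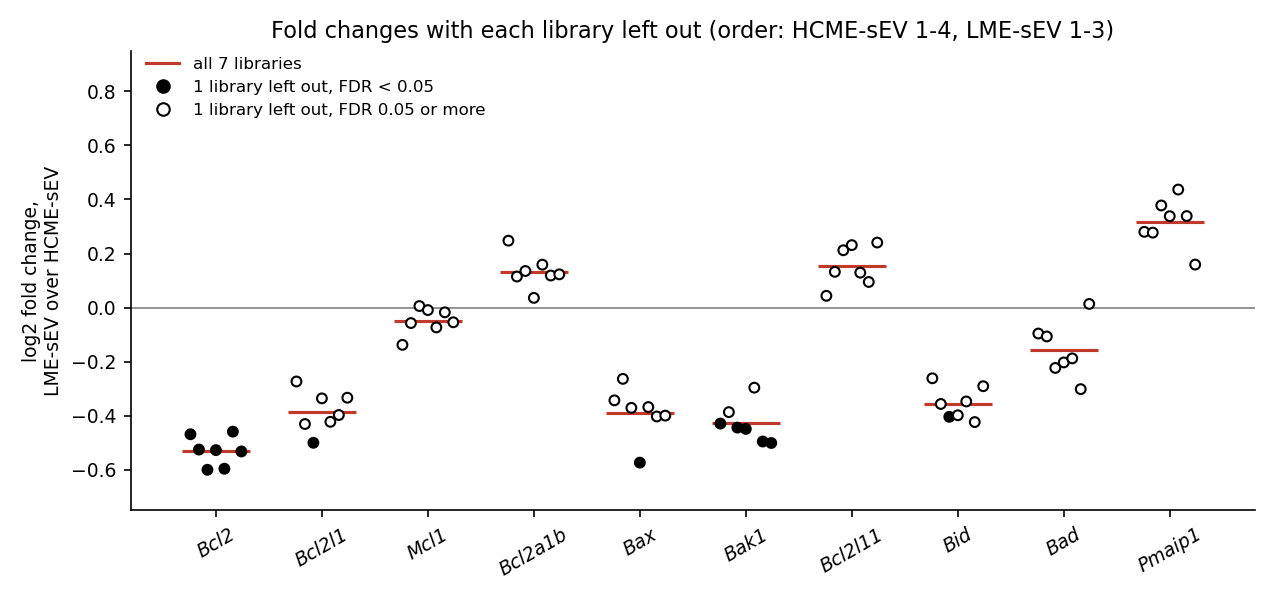
Log2 fold change of each member when 1 of the 7 libraries was left out at a time (points, from HCME-sEV replicate 1 at the left to LME-sEV replicate 3 at the right), with the value from all 7 libraries as a line and filled points where the FDR was under 0.05. *Bcl2* stays called in all 7 fits and *Bak1* in 5 of them, and the points of *Mcl1* and *Bad* lie on both sides of 0.

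The order of levels was almost the same in both groups. After HCME-sEVs the order of the means was *Mcl1* (319 CPM), *Bcl2* (284 CPM), *Bcl2l11* (141 CPM), *Bcl2l1* (90.2 CPM), *Bak1* (57.5 CPM), *Bid* (52.3 CPM), *Bad* (34.5 CPM), *Bcl2a1b* (30.4 CPM), *Pmaip1* (24.3 CPM) and *Bax* (18.9 CPM). The ranges of *Mcl1* and *Bcl2* overlapped there, with *Bcl2* above *Mcl1* in HCME-sEV replicate 1 only. *Bcl2* lay apart from *Bcl2l11*, *Bcl2l1* from *Bak1*, and *Bid* from *Bad*, and the other neighbours overlapped. After LME-sEVs *Mcl1* (308 CPM), *Bcl2* (197 CPM), *Bcl2l11* (157 CPM) and *Bcl2l1* (69.3 CPM) each lay apart from the next, and *Bad* (31.1 CPM) came after *Bcl2a1b* (33.2 CPM), 2 neighbours whose ranges overlapped. *Bax* was last in both groups, at 14.3 CPM after LME-sEVs, where its range lay apart from that of *Pmaip1* (29.99 CPM).

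The relative levels of *Bcl2* and its partners are given as a description without a test. *Bcl2* enters each of them, so they carry its lower level and are not findings separate from it. The ratio of *Mcl1* to *Bcl2* CPM was 0.811, 1.09, 1.47 and 1.21 after HCME-sEVs and 1.48, 1.66 and 1.57 after LME-sEVs. The ratio of *Bcl2l11* to *Bcl2* was 0.338, 0.470, 0.656 and 0.570 after HCME-sEVs and 0.757, 0.959 and 0.702 after LME-sEVs. Both ratios were higher in every LME-sEV library, although for *Mcl1* to *Bcl2* the gap between the nearest libraries was 1.47 against 1.48. *Bcl2* made up 39.2% ± 3.91 (SD, n = 4) of the summed CPM of the 4 pro-survival members after HCME-sEVs and 32.4% ± 1.48 (SD, n = 3) after LME-sEVs.

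Summed over members, the 4 pro-survival genes reached 728, 713, 695 and 755 CPM after HCME-sEVs and 642, 574 and 605 CPM after LME-sEVs. Every LME-sEV library lay below, in a sum that again includes *Bcl2*. The 6 pro-death genes reached 309.5, 334, 337 and 334 CPM against 309.99, 341 and 297 CPM, and the groups overlapped. The log2 ratio of summed pro-death to summed pro-survival CPM was -1.14 ± 0.084 (SD, n = 4) and -0.94 ± 0.17 (SD, n = 3), a difference of 0.20, and the libraries of the 2 groups overlapped. Without LME-sEV replicate 2 that difference was 0.099. These sums weight abundant genes most, and transcript levels do not give the levels of the proteins, several of which are set by phosphorylation, cleavage or turnover.

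**Figure D4:**
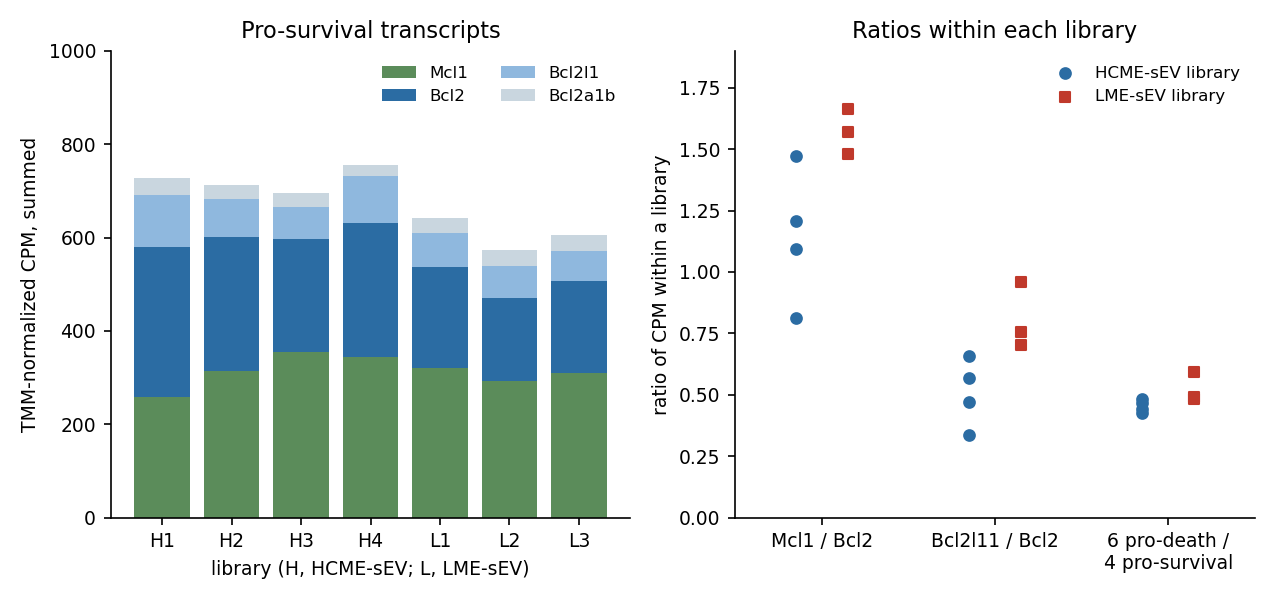
Left, stacked TMM-normalized CPM of the 4 pro-survival members in each library (H, HCME-sEV; L, LME-sEV), reaching 695 to 755 CPM in the 4 HCME-sEV libraries and 574 to 642 CPM in the 3 LME-sEV libraries. Right, the ratios of *Mcl1* to *Bcl2*, of *Bcl2l11* to *Bcl2* and of the 6 pro-death to the 4 pro-survival members in each library, of which the first and the second do not overlap between groups and the last does.

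Relatives outside the 10 members were listed too, and of the 16 listed 9 were abundant enough to test. *Bmf*, a BH3-only gene whose product is released from the actin-based motor complex, rose, and *Bnip3*, a gene of mitophagy and hypoxia with a BH3-like stretch, fell. The other 7 were not called, so 2 of 9 were, against 8.96% of all tested genes. The median log2 fold change of the 9 was 0.095.

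*Bmf* stood at 2.40, 1.26, 1.60 and 1.39 CPM after HCME-sEVs and at 3.22, 6.72 and 4.44 CPM after LME-sEVs. Every LME-sEV library was higher, from counts of only 5 to 10 and 12 to 30 per library. The log2 fold change of 1.52 (SE 0.37, 95% interval 0.75 to 2.30) had an FDR of 0.013 in edgeR's quasi-likelihood test, which made *Bmf* the only family gene tested here beyond a log2 fold change of 1. The call was lost without LME-sEV replicate 2 (FDR 0.13) and without LME-sEV replicate 3 (FDR 0.0501). At a mean of 4.79 CPM after LME-sEVs, *Bmf* remained below every one of the 10 members. It lies at positions 118528757 to 118549687 on the minus strand of chromosome 2 (GRCm38).

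*Bnip3* was at 126, 104, 108 and 95.6 CPM after HCME-sEVs and at 79.6, 84.7 and 83.7 CPM after LME-sEVs, with all LME-sEV libraries below. Its log2 fold change was -0.39 (SE 0.096) with an FDR of 0.014 in edgeR's quasi-likelihood test. Its 3′ end was 99.0% identical over 202 bases to those of *Gm16439* and *Gm6532*, which had 0 counts. Whether reads of *Bnip3* were lost to such matches was not tested. The call was lost without LME-sEV replicate 1, 2 or 3, at FDRs of 0.061, 0.059 and 0.061. The log2 fold change there was -0.36, -0.41 and -0.40. Those 3 fits called 845, 391 and 458 genes in all, against 1131 with every library. Why the call of *Bnip3* was lost was not tested.

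*Bbc3*, which encodes the p53 target PUMA, and *Bnip3l*, a mitophagy receptor, were higher in every LME-sEV library without passing the test. *Bbc3* was at 39.9, 49.8, 54.5 and 52.7 CPM against 61.9, 67.9 and 57.0 CPM, a log2 fold change of 0.34 with an FDR of 0.060 in edgeR's quasi-likelihood test. *Bnip3l* was at 41.8, 53.5, 55.6 and 42.0 CPM against 57.4, 63.8 and 62.4 CPM. That was a log2 fold change of 0.35 with an FDR of 0.054 in edgeR's quasi-likelihood test. The 3′ end of *Bnip3l* was 99.6% identical over 265 bases to that of *Bnip3l-ps*, which had 0 counts. Of the 14 other settings, 4 called *Bbc3* and 5 called *Bnip3l*, among them library-size scaling at FDRs of 0.042 and 0.035.

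*Bcl2l2*, encoding pro-survival BCL-W, had a log2 fold change of 0.095 at 5.99 and 6.34 CPM, and *Bcl2a1d* one of 0.14 at 33.9 and 37.2 CPM. *Bcl2l12* and *Bcl2l13* had log2 fold changes of 0.058 and 0.029, and *Bik*, a BH3-only gene with 2 to 9 counts per library, had one of -0.61 with an FDR of 0.51 in edgeR's quasi-likelihood test. *Bcl2a1c* and *Bcl2l10* had 0 counts in every library, for which 3 counts, or 0.580 to 0.804 CPM per library, is the upper limit that a count of 0 allows, for counting error only. *Bok*, *Hrk*, *Bcl2a1a*, *Bcl2l14* and *Bcl2l15* were under a mean of 5 counts and were not tested.

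The machinery that acts after the family was measured by 19 genes, among them the caspases, *Apaf1*, *Cycs* and their inhibitors, and all 19 were tested. *Endog*, a mitochondrial nuclease released with cytochrome c, fell, and the other 18 were not called. It was at 24.2, 19.4, 20.2 and 21.1 CPM after HCME-sEVs and at 17.4, 14.3 and 10.6 CPM after LME-sEVs, a log2 fold change of -0.61 (SE 0.17) with an FDR of 0.024 in edgeR's quasi-likelihood test. Its 3′ end overlaps that of *Spout1* on the opposite strand, which had 282 to 407 counts per library, so the counts of *Endog* are uncertain. The call was lost without HCME-sEV replicate 1 or 4 and without LME-sEV replicate 2 or 3, at FDRs of 0.052, 0.0502, 0.084 and 0.18. *Birc5*, the inhibitor-of-apoptosis gene survivin that marks dividing cells, was the most abundant of the 19 at 459 ± 66.0 CPM and 409 ± 39.0 CPM, with an FDR of 0.32 in edgeR's quasi-likelihood test. The median log2 fold change of the 19 was -0.051, and 1 of 19 was called, against 8.96% of all tested genes.

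Of 12 genes of the death receptor route, which meets the family at *Bid*, *Fasl* and *Fadd* fell and 10 were not called. That is 2 of 12 called, against 8.96% of all tested genes. *Fasl*, the ligand with which cytotoxic T cells trigger FAS on targets, was at 28.6, 28.5, 27.4 and 23.9 CPM after HCME-sEVs and 19.3, 18.4 and 18.2 CPM after LME-sEVs. The 3 LME-sEV libraries were close together and lay below all others. The log2 fold change was -0.54 (SE 0.13) with an FDR of 0.012 in edgeR's quasi-likelihood test, and the call was lost without LME-sEV replicate 2 or 3, at FDRs of 0.062 and 0.064.

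*Fadd*, the adaptor that recruits caspase 8, was at 15.1, 12.4, 13.8 and 16.2 CPM after HCME-sEVs and 11.3, 9.86 and 8.31 CPM after LME-sEVs. Its log2 fold change of -0.57 (SE 0.18) had an FDR of 0.048 in edgeR's quasi-likelihood test, a call kept in only 2 of 14 other settings and in none of the 7 fits that left out a library. *Casp8* was the most abundant of the 12 at 78.6 ± 7.61 CPM and 68.9 ± 7.53 CPM, with an FDR of 0.29 in edgeR's quasi-likelihood test. The median log2 fold change of the list was -0.16.

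Among 21 genes that control the family through transcription, phosphorylation, sequestration or turnover, 2 rose, 2 fell and 17 were not called. That is 4 of 21 called, against 8.96% of all tested genes. With lists this short, nothing particular to a list is read from its count. The median log2 fold change of the 21 was -0.064. *Il7r*, the receptor chain for the survival cytokine IL7, rose from 188, 195, 249 and 197 CPM after HCME-sEVs to 297, 289.6 and 302 CPM after LME-sEVs. All 3 LME-sEV libraries were higher, with a log2 fold change of 0.52 (SE 0.089) and an FDR of 0.0012 in edgeR's quasi-likelihood test, and the call held in all 14 other settings. IL7 signalling is known to raise BCL2 in T cells.

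*Stat5b*, a transcription factor that IL2 and IL7 activate, rose, with means of 97.8 ± 5.64 CPM after HCME-sEVs (SD, n = 4) and 119 ± 6.72 CPM after LME-sEVs (SD, n = 3), a log2 fold change of 0.29 with an FDR of 0.036 in edgeR's quasi-likelihood test. *Pim1*, a kinase gene induced by STAT5 whose product phosphorylates BAD, fell from 537 ± 58.8 CPM to 424.8 ± 2.59 CPM, a log2 fold change of -0.34 with an FDR of 0.014 in edgeR's quasi-likelihood test. *Dynll1*, which encodes a dynein light chain that holds BIM, fell from 258 ± 4.86 CPM to 214 ± 1.24 CPM. Its log2 fold change was -0.27 with an FDR of 0.022 in edgeR's quasi-likelihood test. The groups of all 3 genes did not overlap, which held for 20.3% of all tested genes. Each of these 3 calls was lost without LME-sEV replicate 2 or 3 and without HCME-sEV replicate 2, at FDRs of 0.069 to 0.18. *Pim1* and *Dynll1* were also lost without LME-sEV replicate 1, at FDRs of 0.058 and 0.075, *Dynll1* also with library-size scaling or without a filter, at FDRs of 0.054 and 0.0503, and *Stat5b* without HCME-sEV replicate 1 or 3, at FDRs of 0.053 and 0.051. *Il2rb*, the most abundant of the 21, was at 970.2 ± 61.5 CPM and 874 ± 52.3 CPM, with an FDR of 0.25 in edgeR's quasi-likelihood test.

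**Figure D5:**
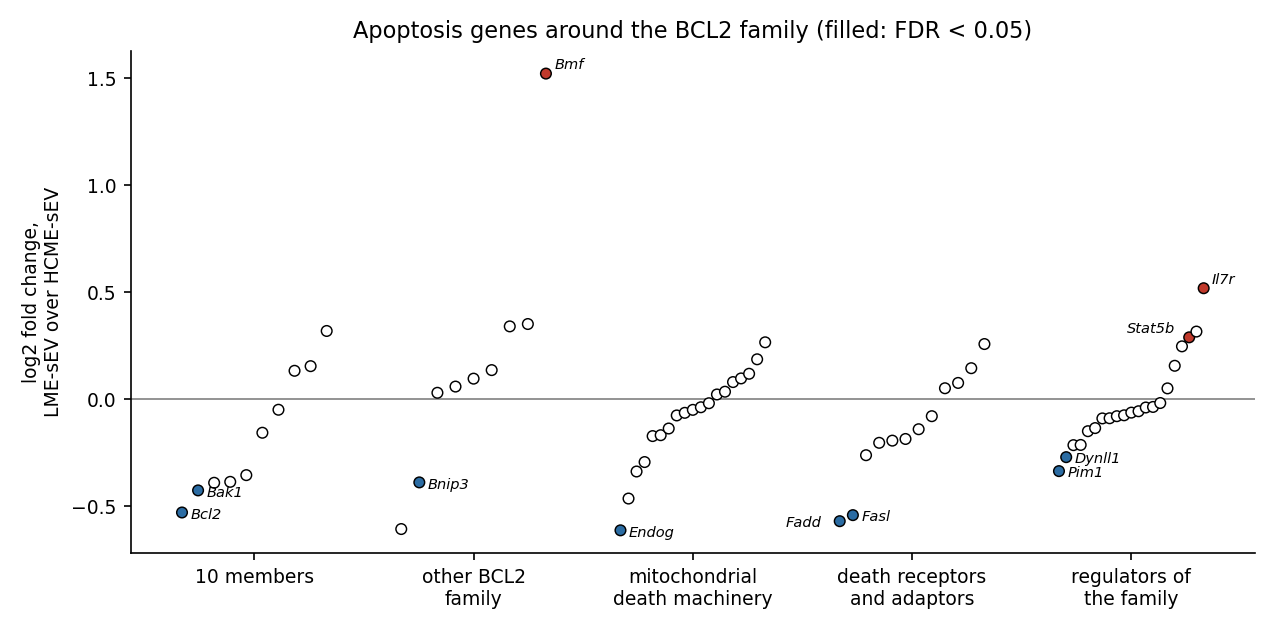
Log2 fold change of LME-sEV over HCME-sEV for every tested gene of 5 lists (10 members, 9 other family genes, 19 genes of the mitochondrial death machinery, 12 of the death receptor route and 21 regulators), 1 point per gene in rising order within a list. Filled, named points are the genes called at an FDR under 0.05, from *Endog* at -0.61 to *Bmf* at 1.52.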

How the data were processed

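QuantSeq 3′ RNA-seq was read from 7 libraries of mouse CD8+ T cells. The authors deposited raw whole-number counts for 55367 gene symbols; the submitters' processing notes name cutadapt 2.10, STAR 2.5.3a on GRCm38, UMI-tools 1.0.0, by which a count stands for a captured molecule, and featureCounts of Subread 2.0.0. The annotation release and the strand setting are not given in the sources used here. Groups and their sizes were taken from the sample labels; a legend in the paper gives the sizes the other way round. LME-sEV libraries (n = 3) were compared with HCME-sEV libraries (n = 4) with edgeR 4.0.16 (R 4.3.3): TMM, genes averaging 5 or more counts (12623 genes), the quasi-likelihood test and Benjamini-Hochberg adjustment over all tested genes. SE was derived from the fitted change and its F statistic. The members and the gene lists were chosen with earlier results of these data known. All 10 members, the tested relatives, and the called and most abundant genes of the other lists were named. The script was tested on simulated data. Alternatives were DESeq2 1.42.0, limma 3.58.1, other scalings and filters, the replicate number as a block, and leaving out each library. Coordinates came from GENCODE vM21 and 3′ ends were compared with blast 2.17.0. Protein sequences were not used here.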

Additional observations from a re-analysis of the deposited data

Results flagged for a closer look

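In the group of 4 HCME-sEV libraries, 5 of 74 measures examined (71 gene levels and 3 ratios) had 1 library far from the others by Dixon's criterion (its gap to the nearest library over the whole range, given as a ratio), and chance alone flags about 1 in 20, or 3.7 of 74. None of the 10 members was among them. *Bcl2l12* had a ratio of 0.855, with replicate 1 low at 5.76 CPM against 10.4 to 11.1 CPM in the others. *Vdac3*, an outer-membrane channel gene, had 0.857, with replicate 1 high at 82.8 CPM against 74.2 to 75.4 CPM. *Foxo3*, a transcription factor gene that acts on *Bcl2l11*, had 0.900, with replicate 4 high at 47.8 CPM against 42.2 to 42.7 CPM. *Il7r* had 0.857, with replicate 3 high at 249 CPM against 188 to 197 CPM, still below the 289.6 to 302 CPM of the LME-sEV libraries. *Ywhab*, a 14-3-3 gene whose product holds BAD, had 0.887, with replicate 3 low at 301 CPM against 360.4 to 368 CPM.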

How the results depend on the processing

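With single libraries left out, members called ranged from 1 to 4 (4 without HCME-sEV replicate 3, 1 without HCME-sEV replicate 2 or LME-sEV replicate 1), other family genes from 0 to 4, mitochondrial genes from 0 to 2, death receptor genes from 0 to 1 and regulators from 1 to 5. The lowest counts of these other lists came without LME-sEV replicate 2 or 3, and for regulators also without HCME-sEV replicate 2. Over all tested genes, calls also fell, to 391 without LME-sEV replicate 2 and 458 without replicate 3. They were 845 without LME-sEV replicate 1 and 1131 with every library. Of the other family genes, 4 were called with library size only and 4 without a filter. Death receptor genes called were 1 with library size only, without a filter, with DESeq2, with limma-voom and with the replicate block. *Bcl2* and *Il7r* were called in all settings.

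Of the 19 members and relatives tested, 5 turned sign, none of them called, and each did so only when a library was left out. Their ranges were -0.14 to 0.0058 for *Mcl1*, -0.30 to 0.014 for *Bad*, -0.049 to 0.24 for *Bcl2l2*, -0.12 to 0.16 for *Bcl2l12* and -0.032 to 0.10 for *Bcl2l13*. Of the 52 genes of the other lists, 11 turned sign, none of them called, 6 of them also under a setting that kept every library. The difference in the log2 ratio of pro-death to pro-survival CPM ranged from 0.099 to 0.25. The cause was not tested.

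Replicate numbers 1 to 3 are shared by both groups. The deviations of same-numbered libraries correlated at 0.072, 0.15 and 0.027, and those of differently numbered libraries at -0.21 to 0.080. Such small values cannot settle whether the numbers are pairs, and the main test did not pair them. With the replicate block, in which HCME-sEV replicate 4 has no partner, 5 members were called, all lower (*Bcl2*, *Bcl2l1*, *Bax*, *Bak1* and *Bid*), with 2 mitochondrial genes and 1454 genes in all, against 1131 without it. Library-size scaling moved the median log2 fold change of all genes from 0.0096 to 0.055, within 0.1. Depth limited *Bik* (2 to 9 counts per library) and *Bmf* (5 to 30) most among the family genes tested, and *Bax* (50 to 94) among the members.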
